A study of Homo sapiens with 12 samples.

Results

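The p53 targets described here are a list of 30 genes that the tumour suppressor p53 is known to switch on, among them GDF15, a secreted stress cytokine. They were listed by name, but with earlier results of these data known, so the list is not independent of the values. Of the 30 genes, 28 were measured among 19775 genes. BTG2 and FDXR were not analysed here, because no probe set used here carries either name alone. Each gene was taken from a probe set assigned to exactly 1 gene, and where a gene had several, the one with the highest mean over 12 arrays was used. Its value is the log2 of an RMA-normalized intensity, so levels are compared between samples of the same gene and never between genes.

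The arrays came from human pancreatic carcinoma lines, L3.6pl and FG, which the series title sets apart by metastatic potential. There were 4 groups with 3 arrays each: L3.6pl in hypoxia, L3.6pl in normoxia, FG in hypoxia and FG in normoxia. Cells of every group were grown from frozen stock in medium with serum, with no passaging, for typically 9 days. For the hypoxic cells the oxygen was lowered to 1% with nitrogen during the last 24 h, and the normoxic cells were not treated. Each line is a single cell line, so a difference between lines is a difference between these lines only. Separate cultures behind the replicate numbers are not given in the sources used here, and the p-values then measure only the spread between these arrays, which may be technical. In bulk RNA of this kind, fewer cells of a type and less RNA per cell cannot be told apart.

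p53 is a transcription factor that is kept low by the ubiquitin ligase MDM2 and is stabilised when DNA is damaged or cells are stressed. Its targets stop the cell cycle, repair DNA, sensitise cells to death receptors and feed back on p53 itself. Several of them, GDF15, GADD45A and CDKN1A among them, are also known to respond to other stress pathways that do not need p53.

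The upstream sequences of GDF15 and CDKN1A are shown because these genes were among those that rose in hypoxia and have an entry in the RefSeq promoter table. Each run is the 250 bases before the RefSeq start of the gene in GRCh38.p14, read 5′ to 3′ on the gene's own strand. The GDF15 run lies at chr19:18385908-18386157 on the plus strand, and the CDKN1A run at chr6:36678464-36678713 on the plus strand. Capitals mark TATAAA, the core of the TATA box, and GGGCGG, the core of the GC box, on either strand, so that GGGCGG on the minus strand reads CCGCCC.
GDF15: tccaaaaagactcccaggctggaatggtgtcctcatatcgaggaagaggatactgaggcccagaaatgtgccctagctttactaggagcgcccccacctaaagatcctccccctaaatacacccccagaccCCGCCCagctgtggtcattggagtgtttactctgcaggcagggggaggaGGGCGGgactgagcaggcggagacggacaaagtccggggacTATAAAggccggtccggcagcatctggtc
CDKN1A: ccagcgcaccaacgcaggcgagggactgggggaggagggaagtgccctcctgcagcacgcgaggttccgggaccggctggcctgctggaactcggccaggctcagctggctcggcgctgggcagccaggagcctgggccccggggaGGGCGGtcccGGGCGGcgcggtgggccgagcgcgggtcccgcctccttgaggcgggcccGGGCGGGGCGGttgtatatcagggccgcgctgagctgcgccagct
GDF15 held TATAAA from 29 to 24 bases before the start and a GC box core on each strand. CDKN1A held 4 GC box cores on the plus strand, of which the last 2 share a base, and no TATAAA. These 2 motifs were added after the sequences had been seen.

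Of the 28 measured members, 21 had an entry in the promoter table, with 27305 genes in all. GGGCGG was found in 17 of the 21 (81.0%), against 42.3% of all promoters of the same length, and the members' promoters had a median GC content of 69.6%, against 58.0% over all. TATAAA was found in GDF15 only, 4.76% of the members, against 11.1% of all promoters. The p53 decamer, which is one arm of the consensus p53 site, was matched in AEN, PLK2 and RPS27L, 14.3% of the members, against 5.53% of all promoters. In PLK2 the matched bases were AGACTTGCTT, from 132 to 123 bases before the start on its own strand, with the capitals marking the whole decamer. ACGTG, the core bound by hypoxia-inducible factors, was found in MDM4, PLK2 and XPC, 14.3% against 18.7% of all promoters. TGANTCA, the AP-1 motif, was found in FAS, PERP and SFN, 14.3% against 6.60%, and TGATGNAA, a motif of ATF4 with its partners, in PLK3 alone, 4.76% against 3.19%. Both strands were searched for each motif. A match describes letters in this window and is not a site, and the known p53 sites of CDKN1A lie further upstream than the bases shown.

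The arrays of a group correlated with each other at 0.974 to 0.996 over all genes, as a description. In earlier results of these data 3 arrays stood apart from their groups: replicate 1 of FG normoxia, replicate 1 of L3.6pl normoxia and replicate 3 of L3.6pl hypoxia. The mean level of 10 proliferation genes was 8.35 in replicate 1 of FG normoxia, against 10.49 in each of the other normoxic FG arrays. In replicate 1 of L3.6pl normoxia it was 9.68, against 10.68 and 10.53 in the other arrays of that group. The mean level of 15 genes of the integrated stress response was 9.93 in replicate 1 of FG normoxia, against 8.78 and 8.87 in the others, and 9.02 in replicate 3 of L3.6pl hypoxia, against 9.48 and 9.79. The calls that members gained when these 3 arrays were left out stand below beside each comparison. Markers of pancreatic epithelium (KRT8, KRT18, KRT19, EPCAM and CDH1) had array means of 11.78 to 12.15 in every group, although single members moved. KRT19 was higher in L3.6pl than in FG, by 0.45 in normoxia (adjusted p = 0.0309, limma) and 0.90 in hypoxia (adjusted p = 0.000416). KRT8 (-0.84, adjusted p = 0.011) and KRT18 (-0.53, adjusted p = 0.0405) were lower in hypoxic L3.6pl than in hypoxic FG. CDH1 rose by 1.26 in hypoxic L3.6pl (adjusted p = 0.0375). Blood markers stayed at 5.17 to 5.34 and endothelial markers at 4.78 to 5.39, with PECAM1 higher by 0.98 in hypoxic L3.6pl than in hypoxic FG (adjusted p = 0.0087).

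**Figure D1:**
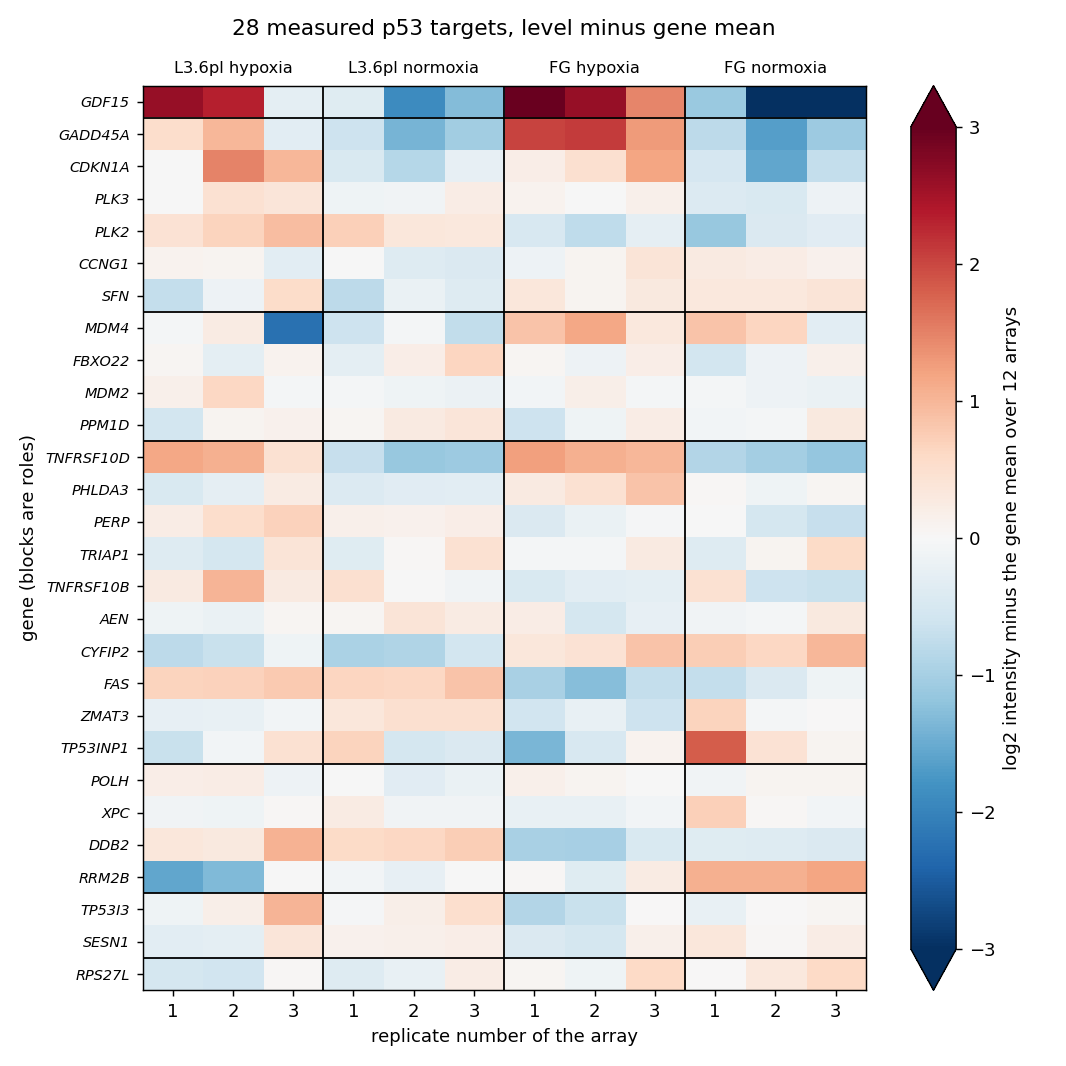
Level of each of the 28 measured p53 targets (rows, in blocks by role) in each of the 12 arrays (columns), as log2 intensity minus the gene's mean over the 12 arrays; the colour scale ends at 3 in either direction, with higher or lower values in the end colours. GDF15, GADD45A, CDKN1A and TNFRSF10D are higher in the hypoxia columns than in the normoxia columns of the same line, and FAS, DDB2 and CYFIP2 separate the lines.

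In FG cells 4 of the 28 measured p53 targets rose in hypoxia and 1 fell. GDF15, GADD45A, TNFRSF10D and CDKN1A rose, and ZMAT3 fell. The order of their sizes depends on the probe set: GDF15 differed by 5.08 with the set used and by 2.27 as the mean of its 3 sets. That is 14.3% of the members higher and 3.57% lower, beside 4.24% and 6.47% of all genes tested. The other 23 members were not called, a call being a p below 0.05 in limma's moderated test after Benjamini-Hochberg adjustment over all genes. Unadjusted, 11 of the 28 had a p below 0.05, and the share of all genes at that threshold is not given here. The median log2 fold change of the members was -0.09, beside -0.03 over all genes, with 12 positive and 16 negative.

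In L3.6pl cells 2 members rose, TNFRSF10D and GADD45A, and none was called lower. The 2 called are 7.14% of the members, beside 3.89% of all genes called higher, while 2.97% of all genes were called lower. An unadjusted p below 0.05 was given to 7 members, with no share of all genes given for that. Of these, 5 had positive differences, the called ones included, and 2 had negative ones, ZMAT3 and RRM2B. The median log2 fold change of the members was 0.17, beside -0.02 over all genes. TNFRSF10D and GADD45A were called in both lines, 3 members in FG alone and 0 in L3.6pl alone. The sign of the difference was the same in both lines for 20 of the 28 members, called or not, which is 71.4%, beside 68.7% of all genes. Same-numbered arrays of the lines deviated together within an oxygen condition, as given below. The hypoxia changes of the lines are therefore not independent of each other. The groups of hypoxia and normoxia did not overlap for 11 members in FG (39.3%, beside 27.9% of all genes) and for 6 in L3.6pl (21.4%, beside 24.4% of all genes). With 3 arrays in each group a two-sided exact permutation test has 0.1 as its smallest p, so single genes were tested only in the fit across all genes. Without the 3 arrays that stood apart, 8 members were called in FG (5 higher and 3 lower) and 10 in L3.6pl (7 higher and 3 lower). Gained in FG were PHLDA3 (0.56, adjusted p = 0.0438, limma) as higher, and FAS (-0.71, adjusted p = 0.0167) and RRM2B (-1.15, adjusted p = 0.00232) as lower. Gained in L3.6pl were GDF15 (4.06, adjusted p = 0.000373), TNFRSF10B (0.69, adjusted p = 0.0401), MDM2 (0.54, adjusted p = 0.0402), CCNG1 (0.51, adjusted p = 0.049) and POLH (0.48, adjusted p = 0.0129) as higher. RRM2B (-1.31, adjusted p = 0.00194), ZMAT3 (-0.72, adjusted p = 0.00746) and TRIAP1 (-0.71, adjusted p = 0.0333) were gained as lower there. All genes were then called more often too, 19.6% of them in FG and 21.1% in L3.6pl.

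GDF15 encodes a cytokine of the TGF-beta superfamily that is secreted by stressed cells and acts on the brain through GFRAL and its co-receptor RET. In FG its log2 intensity was 12.56, 12.21 and 11.07 in the hypoxia arrays and 8.49, 5.96 and 6.16 in the normoxia arrays. All hypoxic FG arrays lay above all normoxic ones, and replicate 1 of normoxia was the highest of its group. The difference was 5.08 ± 0.849 (standard error) on the log2 scale, a 33.7-fold rise (adjusted p = 0.00408, limma). As geometric means of intensity this is 3940 in hypoxia and 117 in normoxia. Without replicate 1 of FG normoxia the log2 difference was 5.89 (adjusted p = 0.00225).

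In L3.6pl GDF15 was at 12.21, 11.93 and 9.30 in hypoxia and at 9.24, 7.72 and 8.30 in normoxia. The first 2 hypoxia arrays were far above normoxia, while replicate 3 was barely above the highest normoxic array, so the groups did not overlap but nearly touched. The log2 difference of 2.72 ± 0.849 did not pass (adjusted p = 0.0859, limma). Without replicate 3 of L3.6pl hypoxia it was 3.65 (adjusted p = 0.0112), without replicate 1 of the same group 2.19 (adjusted p = 0.251), and without replicate 1 of FG normoxia, which enters only through the shared spread, it was 2.72 (adjusted p = 0.0399). Leaving out all 3 arrays that stood apart gave 4.06 (adjusted p = 0.000373). Replicate 3 of L3.6pl hypoxia was also the lowest of its group in GADD45A, in TNFRSF10D and in the stress response mean given above, and the part of these in the result was not tested.

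By level, GDF15 stood highest in FG hypoxia (11.94 ± 0.779, SD, n = 3), then in L3.6pl hypoxia (11.14 ± 1.61), L3.6pl normoxia (8.42 ± 0.767) and FG normoxia (6.87 ± 1.41). No step between neighbours in this order passed the test when all arrays were fitted without a block. It was -0.80 for hypoxic L3.6pl minus hypoxic FG (adjusted p = 0.618, limma), 2.72 for hypoxia against normoxia in L3.6pl, as given above, and 1.55 for normoxic L3.6pl minus normoxic FG (adjusted p = 0.337). The last of these steps passed with same-numbered arrays paired (adjusted p = 0.00967), and without the 3 arrays that stood apart (1.95, adjusted p = 0.0139). Without those arrays the hypoxia step in L3.6pl passed as well (4.06, adjusted p = 0.000373). GDF15 was the least stable member between arrays of a group. Its pooled SD of 1.20 was at the 100th percentile of all genes, beside a median of 0.284 for the members and 0.181 for all genes. GDF15 has 3 probe sets here. All 3 gave positive differences in both lines, from 0.47 to 5.08 in FG with 2 called and from 0.44 to 2.72 in L3.6pl with 1 called. The set used has a name ending in _x_at, which marks probes that can also match other transcripts. The set with the second highest signal gave 1.26 in FG (adjusted p = 0.000372) and 0.93 in L3.6pl (adjusted p = 0.00281) in a fit over all single probe sets.

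**Figure D2:**
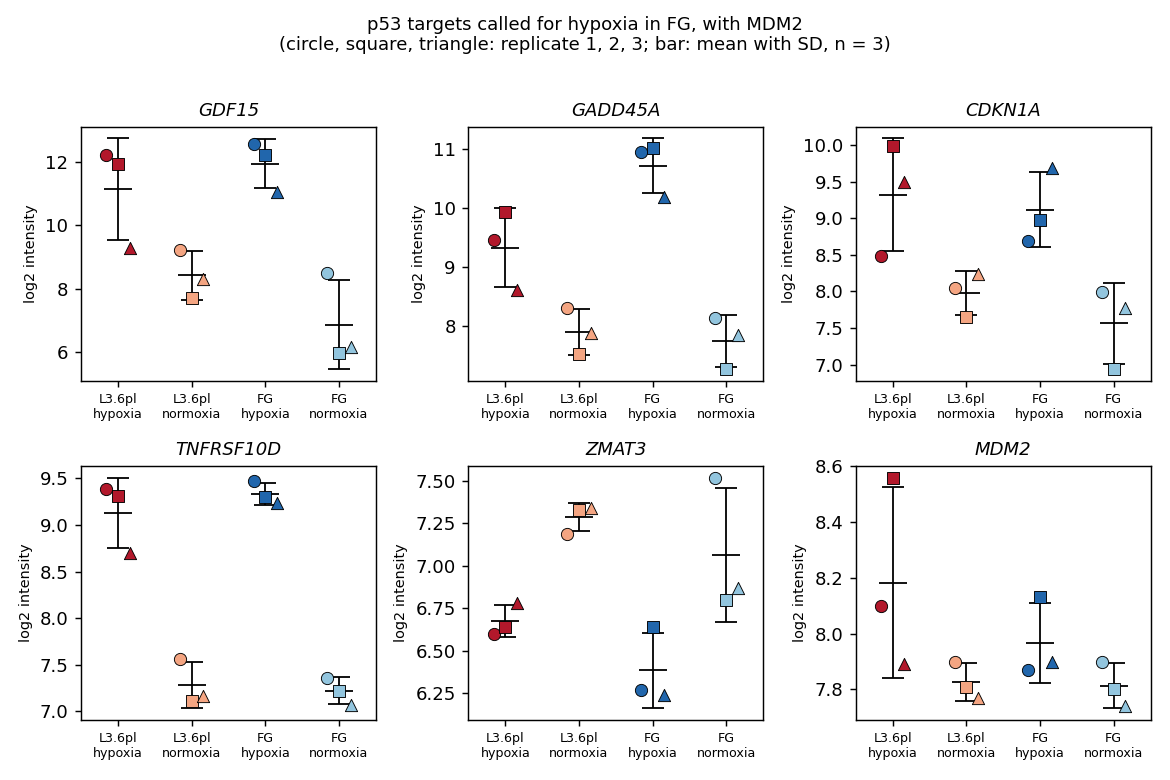
Log2 intensity (y axis) of the 5 p53 targets called for hypoxia in FG, and of MDM2, in each array of the 4 groups (x axis); circles, squares and triangles are replicates 1, 2 and 3, and the bars give the mean and SD of 3 arrays. Hypoxia lies above normoxia without overlap in both lines for GDF15, GADD45A, CDKN1A and TNFRSF10D and below it for ZMAT3, while the MDM2 values overlap in both lines.

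Among the members that stop or slow the cell cycle, 2 of 6 rose in FG and 1 of 6 in L3.6pl, beside 4.24% and 3.89% of all genes. GADD45A, which binds PCNA and p21 and acts in cell cycle arrest and repair, was at 10.95, 11.03 and 10.19 in hypoxic FG and at 8.13, 7.26 and 7.84 in normoxic FG. The hypoxic arrays were all at least 10.19 and the normoxic ones at most 8.13. The rise was 2.98 ± 0.362 on the log2 scale, or 7.88-fold (adjusted p = 0.000781, limma). In L3.6pl GADD45A was at 9.45, 9.93 and 8.60 in hypoxia, against 8.30, 7.52 and 7.87 in normoxia, again with no overlap. It rose by 1.43 ± 0.362, or 2.69-fold (adjusted p = 0.0411). This call in L3.6pl was lost when any 1 of 8 arrays was left out, with adjusted p from 0.0502 (without replicate 1 of L3.6pl normoxia) to 0.165 (without replicate 2 of that group). The other 6 were replicate 3 of L3.6pl normoxia, replicates 1 and 2 of L3.6pl hypoxia, replicates 1 and 2 of FG hypoxia and replicate 3 of FG normoxia. It was also lost in a fit of the L3.6pl arrays alone (adjusted p = 0.0787). Without the 3 arrays that stood apart the difference was 1.99 (adjusted p = 0.00233).

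CDKN1A, the p21 inhibitor of cyclin-dependent kinases and the classical p53 target, was at 8.69, 8.98 and 9.68 in hypoxic FG, against 7.99, 6.94 and 7.77 in normoxic FG. Every hypoxic array exceeded every normoxic one. The rise was 1.55 ± 0.399, or 2.93-fold (adjusted p = 0.0317, limma). It was no longer called without replicate 2 of FG hypoxia (adjusted p = 0.0856), replicate 3 of FG hypoxia (0.102), replicate 2 of FG normoxia (0.114) or replicate 3 of FG normoxia (0.0593). In L3.6pl CDKN1A was at 8.48, 9.99 and 9.49 in hypoxia and at 8.04, 7.65 and 8.24 in normoxia. Those groups did not overlap either, but the difference of 1.34 ± 0.399 missed the threshold (adjusted p = 0.073, limma). Without replicate 1 of L3.6pl hypoxia, the lowest of that group, it was 1.76 (adjusted p = 0.0267).

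The other 4 arrest genes were not called for hypoxia in either line with the probe sets used. PLK3, a stress-responsive polo-like kinase, differed by 0.42 in FG (adjusted p = 0.0991) and by 0.27 in L3.6pl (adjusted p = 0.327), all from limma. Of the 3 probe sets of PLK3, 2 were positive and 1 negative in L3.6pl. Fitted singly, 1 was called higher there (0.38, adjusted p = 0.0345). PLK2, a related kinase, differed by 0.14 and 0.21 in FG and L3.6pl. CCNG1, a cyclin that works with the MDM2 loop, had -0.10 in FG and 0.24 in L3.6pl. SFN, the 14-3-3 sigma protein that holds back mitotic entry, had -0.10 in FG and 0.36 in L3.6pl.

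With the probe sets used, none of the 4 genes that feed back on p53 was called for hypoxia in either line. MDM2 was at 7.87, 8.13 and 7.90 in hypoxic FG, against 7.90, 7.80 and 7.74 in normoxic FG. These groups overlapped and differed by 0.15 ± 0.152 (adjusted p = 0.639, limma). In L3.6pl MDM2 was at 8.10, 8.56 and 7.89 in hypoxia, against 7.90, 7.81 and 7.77 in normoxia, with replicate 2 of hypoxia the highest array of all. These groups overlapped as well. The difference was 0.36 ± 0.152 (adjusted p = 0.203, limma), and 0.51 (adjusted p = 0.0441) without replicate 3 of L3.6pl hypoxia. MDM2 has 10 probe sets, which ranged from -0.54 to 1.23 in FG, with 7 positive and 1 called lower, and from -0.05 to 0.92 in L3.6pl with none called. MDM4, which blocks the activation domain of p53, differed by 0.38 in FG (adjusted p = 0.776) and -0.21 in L3.6pl (adjusted p = 0.896). In replicate 3 of L3.6pl hypoxia it was at 6.37, against 8.54 and 8.86 in the other arrays of the group. Of the 6 probe sets of MDM4, 3 were positive and 3 negative in FG. When all probe sets were fitted singly, 1 of them was called higher there (1.04, adjusted p = 0.0312, limma). PPM1D, a phosphatase that reverses p53 activation, differed by -0.23 in FG and -0.35 in L3.6pl. FBXO22, the substrate subunit of a ubiquitin ligase, had 0.22 in FG and -0.21 in L3.6pl. Of the 5 probe sets of FBXO22, 3 were positive and 2 negative in FG. Fitted singly, 1 was called lower there (-0.96, adjusted p = 0.029, limma).

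Of the 10 members with roles in apoptosis, 1 rose and 1 fell in FG, and 1 rose in L3.6pl. Of all genes 4.24% were called higher and 6.47% lower in FG, and 3.89% higher in L3.6pl. TNFRSF10D encodes a decoy receptor for the death ligand TRAIL, which binds the ligand without passing on a full death signal. In FG it was at 9.47, 9.30 and 9.24 in hypoxia and at 7.36, 7.22 and 7.07 in normoxia. In L3.6pl it was at 9.39, 9.31 and 8.70 in hypoxia and at 7.56, 7.11 and 7.16 in normoxia. The arrays fell into hypoxic and normoxic levels that were alike in the lines, with a gap of more than 1 log2 unit between them. It rose by 2.12 ± 0.185 in FG, or 4.35-fold (adjusted p = 0.000154, limma), and by 1.86 ± 0.185 in L3.6pl, or 3.62-fold (adjusted p = 0.000507). Both calls held in all 21 alternatives computed for each, from 2.05 to 2.27 in FG and from 1.62 to 2.22 in L3.6pl. The other probe set of TNFRSF10D gave 2.42 in FG, also called, and 1.38 in L3.6pl, not called. On that set L3.6pl was at 8.11, 7.74 and 5.97 in hypoxia, against 5.88, 5.87 and 5.94 in normoxia, so replicate 3 of hypoxia was at the normoxic level.

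The signalling TRAIL receptor TNFRSF10B gave no such picture with the probe set used, which differed by -0.07 in FG (adjusted p = 0.931, limma) and by 0.40 in L3.6pl (adjusted p = 0.52). Its probe sets disagreed in FG. When all probe sets were fitted singly, 2 others were called higher, at 1.57 (adjusted p = 0.0121) and 1.45 (adjusted p = 0.0176), both with names ending in _x_at. The same 2 sets differed by 1.12 and 1.06 in L3.6pl, neither called. FAS, the receptor of the death ligand FASLG, was at 7.84, 7.55 and 8.10 in hypoxic FG and at 8.11, 8.39 and 8.68 in normoxic FG. The groups nearly met but did not overlap, and the difference of -0.57 just missed the threshold (adjusted p = 0.0507, limma). All 5 probe sets of FAS were negative in FG and 2 of them were called lower. In L3.6pl FAS differed by 0.00 (adjusted p = 0.995).

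ZMAT3, a zinc finger protein that binds RNA, was the only member called lower in hypoxia with the probe sets used. It was at 6.27, 6.64 and 6.24 in hypoxic FG, against 7.52, 6.80 and 6.87 in normoxic FG. The groups did not overlap and replicate 1 of normoxia stood highest. ZMAT3 fell by 0.68 on the log2 scale in FG (adjusted p = 0.0358, limma). In L3.6pl it was at 6.60, 6.64 and 6.78 in hypoxia, against 7.19, 7.33 and 7.34 in normoxia, with a difference of -0.61 that did not pass (adjusted p = 0.0702). All 5 probe sets of ZMAT3 were negative in L3.6pl, and 1 of them was called lower when fitted singly. In FG 4 of the 5 were negative and 2 were called lower. The FG call was lost when any 1 of 6 arrays was left out, with adjusted p from 0.0508 to 0.114. These were replicates 1 and 3 of FG hypoxia, replicate 1 of FG normoxia, replicate 2 of L3.6pl hypoxia, and replicates 2 and 3 of L3.6pl normoxia. It was also lost with a cyclic loess normalization (adjusted p = 0.063), with arrays centred on their medians (adjusted p = 0.0566) and in a fit of the FG arrays alone (adjusted p = 0.124). Without the 3 arrays that stood apart the log2 difference was -0.45 in FG (adjusted p = 0.0394) and -0.72 in L3.6pl (adjusted p = 0.00746).

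TP53INP1, a p53 cofactor that also acts in autophagy, was at 5.36, 6.26 and 6.84 in hypoxic FG and at 8.56, 7.18 and 6.82 in normoxic FG. Within hypoxia replicate 1 was the lowest and within normoxia replicate 1 was the highest, and the groups overlapped slightly. The difference was -1.36 (adjusted p = 0.136, limma). In L3.6pl TP53INP1 was at 6.07, 6.67 and 7.21 in hypoxia and at 7.42, 6.21 and 6.31 in normoxia, with no difference in the means (0.00, adjusted p = 0.999). The remaining apoptosis members were not called in either line. PHLDA3, which competes with AKT for membrane lipids, differed by 0.53 in FG (adjusted p = 0.0949) and 0.19 in L3.6pl. PERP, a membrane protein of desmosomes, had 0.19 in FG and 0.33 in L3.6pl, and the nuclease AEN had -0.23 and -0.32. TRIAP1, a small protein that protects mitochondria, had -0.03 and -0.22, and CYFIP2, a subunit of the actin-regulating WAVE complex, had -0.24 and 0.27.

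None of the 4 members that repair DNA or supply nucleotides was called for hypoxia with the probe sets used. RRM2B, the p53-induced subunit of ribonucleotide reductase, came nearest. It was at 7.45, 7.04 and 7.64 in hypoxic FG, against 8.46, 8.47 and 8.59 in normoxic FG, with no overlap. The difference of -1.13 ± 0.325 had an adjusted p of 0.0504 (limma), and of 0.000954 without replicate 3 of L3.6pl hypoxia, which enters only through the shared spread. In L3.6pl RRM2B was at 5.84, 6.09 and 7.39 in hypoxia and at 7.32, 7.15 and 7.40 in normoxia. Replicates 1 and 2 of hypoxia were low and replicate 3 was among the normoxic values, and the difference of -0.85 did not pass (adjusted p = 0.156). Without replicate 3 of L3.6pl hypoxia it was -1.33 (adjusted p = 0.00108).

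The damage sensors XPC and DDB2 differed by -0.40 and -0.41 in FG (adjusted p = 0.222 and 0.246, limma) and by -0.08 and -0.09 in L3.6pl. POLH, the polymerase that copies past ultraviolet damage, had 0.07 in FG and 0.28 in L3.6pl. Of the 6 probe sets of POLH, 3 were positive and 3 negative in FG. Fitted singly, 1 was called lower there (-0.39, adjusted p = 0.0297). The redox members were not called either. SESN1, a sestrin that restrains mTORC1, differed by -0.47 in FG (adjusted p = 0.19) and -0.23 in L3.6pl. TP53I3, a quinone oxidoreductase, differed by -0.46 in FG (adjusted p = 0.415) and 0.14 in L3.6pl. RPS27L, a ribosomal protein that resembles RPS27, had -0.13 in FG and -0.23 in L3.6pl.

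**Figure D3:**
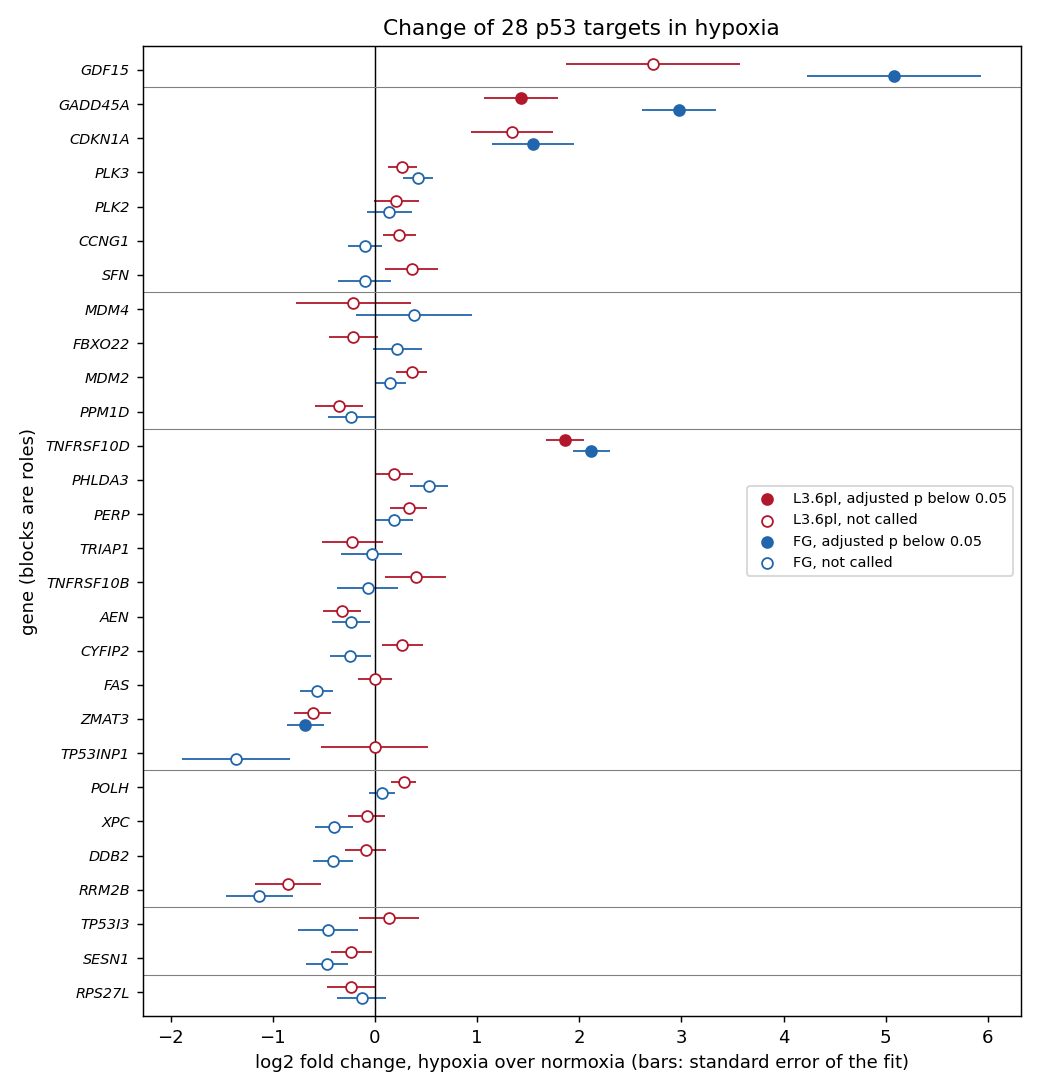
Log2 fold change of hypoxia over normoxia (x axis) for each of the 28 measured p53 targets (y axis, in blocks by role) in L3.6pl and FG, with bars of 1 standard error from the limma fit; filled points have an adjusted p below 0.05. GDF15, GADD45A, TNFRSF10D and CDKN1A lie far to the right in both lines, with GDF15 at 2.72 in L3.6pl and 5.08 in FG, and most other members lie near 0.

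The next comparison set L3.6pl against FG within normoxia. Here 3 members were higher in L3.6pl (10.7%, beside 5.16% of all genes) and 2 were lower (7.14%, beside 5.54% of all genes). FAS, DDB2 and PLK2 were the higher ones, and RRM2B and CYFIP2 the lower ones. The lines did not overlap for 10 members (35.7%, beside 28.1% of all genes). The median log2 difference of the members was 0.11, beside 0.02 over all genes. In hypoxia, 4 members were higher in L3.6pl (14.3%, beside 10.0% of all genes) and 3 were lower (10.7%, beside 6.72%). FAS, DDB2 and PLK2 were again higher, with PERP, and CYFIP2 was again lower, with GADD45A and PHLDA3. The lines did not overlap for 9 members (32.1%, beside 32.1% of all genes). The median was 0.08, beside 0.02. Over both oxygen conditions 8 members were called between the lines, and 16 of the 28 were called in no comparison at all. Shares of all genes are not given for these counts. Without the 3 arrays that stood apart, 9 members were called between the lines in normoxia and 11 in hypoxia, beside 13.1% and 22.3% of all genes. Gained in normoxia were GDF15 (1.95, adjusted p = 0.0139, limma) and PERP (0.78, adjusted p = 0.0122) as higher in L3.6pl, and CCNG1 (-0.59, adjusted p = 0.0405) and SFN (-0.66, adjusted p = 0.0451) as lower. Gained in hypoxia were TNFRSF10B (0.99, adjusted p = 0.00471) as higher, and RRM2B (-1.42, adjusted p = 0.000535), SFN (-0.67, adjusted p = 0.0183) and RPS27L (-0.73, adjusted p = 0.0376) as lower.

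FAS was at 9.46, 9.44 and 9.68 in normoxic L3.6pl, against 8.11, 8.39 and 8.68 in normoxic FG. In hypoxia it was at 9.48, 9.50 and 9.60 in L3.6pl, against 7.84, 7.55 and 8.10 in FG. The L3.6pl arrays were nearly level in both conditions and above every FG array. FAS was higher in L3.6pl by 1.14 ± 0.164 in normoxia (adjusted p = 0.00125, limma) and by 1.70 ± 0.164 in hypoxia (adjusted p = 6.73e-05), and 4 of its 5 probe sets were called higher in each condition.

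DDB2, which finds ultraviolet lesions for nucleotide excision repair, was at 8.99, 9.04 and 9.15 in normoxic L3.6pl, against 8.06, 8.03 and 7.98 in normoxic FG. Hypoxic L3.6pl had 8.75, 8.70 and 9.47, against 7.45, 7.43 and 7.95 in hypoxic FG. No L3.6pl array came down to the FG values. The differences were 1.04 ± 0.198 in normoxia (adjusted p = 0.00658, limma) and 1.36 ± 0.198 in hypoxia (adjusted p = 0.000894). PLK2 was at 10.34, 9.97 and 9.94 in normoxic L3.6pl, against 8.49, 9.18 and 9.28 in normoxic FG, and at 10.06, 10.28 and 10.54 in hypoxic L3.6pl, against 9.14, 8.87 and 9.36 in hypoxic FG. Here too the lines did not overlap. PLK2 was higher in L3.6pl by 1.10 ± 0.219 in normoxia (adjusted p = 0.00871) and by 1.17 ± 0.219 in hypoxia (adjusted p = 0.00414). Without the 3 arrays that stood apart its normoxic difference was 0.73 (adjusted p = 0.0175).

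CYFIP2 was at 5.51, 5.57 and 5.91 in normoxic L3.6pl, against 7.20, 7.08 and 7.47 in normoxic FG. In hypoxia it was at 5.68, 5.80 and 6.33 in L3.6pl, against 6.80, 6.91 and 7.32 in FG. All L3.6pl arrays were below all FG arrays. The log2 differences were -1.58 ± 0.198 in normoxia (adjusted p = 0.000521, limma) and -1.07 ± 0.198 in hypoxia (adjusted p = 0.00377), and both of its probe sets were called lower in each condition. RRM2B, at 7.32, 7.15 and 7.40 in normoxic L3.6pl against 8.46, 8.47 and 8.59 in normoxic FG, was lower in L3.6pl, with a log2 difference of -1.22 ± 0.325 (adjusted p = 0.0368, limma). That call was lost when any 1 of the 6 normoxic arrays or replicate 1 of FG hypoxia was left out, with adjusted p from 0.0536 to 0.126. In hypoxia the difference of RRM2B was -0.94 (adjusted p = 0.0764), and -1.42 (adjusted p = 0.00042) without replicate 3 of L3.6pl hypoxia.

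GADD45A was not called between the lines in normoxia (0.15 ± 0.362, adjusted p = 0.891, limma) and was lower in hypoxic L3.6pl, with a log2 difference of -1.40 ± 0.362 (adjusted p = 0.0227). That call was lost without replicate 1 of FG hypoxia (adjusted p = 0.0837), replicate 2 of FG hypoxia (0.0901) or replicate 3 of L3.6pl hypoxia (0.0654). PERP was at 12.52, 12.84 and 13.00 in hypoxic L3.6pl, against 11.86, 12.10 and 12.27 in hypoxic FG, and it was higher in L3.6pl by 0.71 (adjusted p = 0.0213, limma). PHLDA3 was at 6.73, 6.92 and 7.43 in hypoxic L3.6pl, against 7.45, 7.65 and 8.04 in hypoxic FG, with a difference of -0.69 (adjusted p = 0.0255). Each of these calls was lost when any 1 of 4 arrays was left out. For PERP they were replicates 1 and 2 of FG hypoxia and replicates 2 and 3 of L3.6pl hypoxia, with adjusted p from 0.0615 to 0.0867. For PHLDA3 they were replicates 2 and 3 of FG hypoxia and replicates 1 and 2 of L3.6pl hypoxia, with adjusted p from 0.0626 to 0.0888. In a fit of the hypoxic arrays alone PHLDA3 had an adjusted p of 0.0956 and GADD45A of 0.0502, and with the mean of its probe sets PHLDA3 had 0.147.

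**Figure D4:**
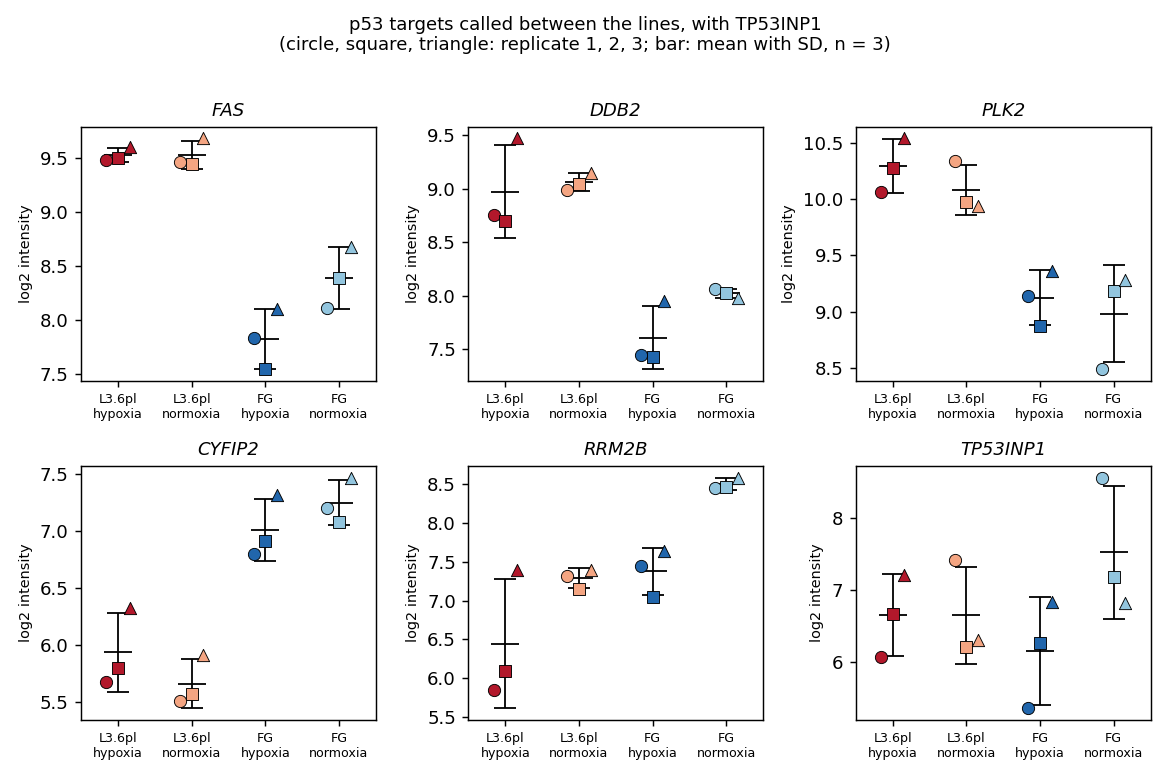
Log2 intensity (y axis) of FAS, DDB2, PLK2, CYFIP2, RRM2B and TP53INP1 in each array of the 4 groups (x axis); circles, squares and triangles are replicates 1, 2 and 3, and the bars give the mean and SD of 3 arrays. FAS, DDB2 and PLK2 are higher in all L3.6pl arrays, CYFIP2 is lower in all of them, and same-numbered arrays of the lines tend to deviate together, as in the high circles of TP53INP1 in normoxia.

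Within an oxygen condition, arrays of the lines with the same replicate number deviated together from their group means, with correlations over genes of 0.53 to 0.73 in normoxia and 0.36 to 0.46 in hypoxia. Between hypoxia and normoxia of a line the correlations were -0.22, -0.13 and 0.26 in FG and -0.04, -0.04 and 0.41 in L3.6pl for replicates 1, 2 and 3, so only replicate 3 deviated together there. With the replicate number as a block within each oxygen condition, an alternative added after the data had been seen, 12 members were called between the lines in normoxia (6 higher and 6 lower) and 13 in hypoxia (7 higher and 6 lower). In normoxia these are 21.4% of the members in either direction, beside 12.2% of all genes higher and 10.9% lower. In hypoxia they are 25.0% higher and 21.4% lower, beside 17.9% and 12.1% of all genes. They included all 5 members called in normoxia and all 7 called in hypoxia without the block. Added in normoxia were GDF15 (1.55, adjusted p = 0.00967, limma), PERP and FBXO22 as higher in L3.6pl, and TP53INP1 (-0.87, adjusted p = 0.00218), SFN, PHLDA3 and RPS27L as lower. Added in hypoxia were TP53I3 (0.87, adjusted p = 0.000273), TNFRSF10B and TP53INP1 as higher, and MDM4 (-1.46, adjusted p = 0.00926), RRM2B and RPS27L as lower.

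The last comparison asked whether hypoxia acted differently in L3.6pl than in FG, as the log2 change in L3.6pl less the log2 change in FG. None of the 28 members was called by limma, and of all genes 0.0152% were called higher and 0.0101% lower. Unadjusted, 2 members had a p below 0.05, with no share of all genes given for that. With the replicate block within oxygen conditions 3 members were called, 1 higher (3.57%, beside 2.54% of all genes) and 2 lower (7.14%, beside 1.01%). GADD45A differed by -1.55 ± 0.158 (adjusted p = 0.00713 with the block, 0.467 without), GDF15 by -2.35 ± 0.459 (0.0346 with the block, 0.751 without) and TP53INP1 by 1.37 ± 0.188 (0.0145 with the block, 0.78 without). For GADD45A the L3.6pl minus FG differences of same-numbered arrays were -1.50, -1.10 and -1.59 in hypoxia and 0.16, 0.26 and 0.03 in normoxia. For GDF15 they were -0.35, -0.28 and -1.77 in hypoxia and 0.75, 1.77 and 2.14 in normoxia. For TP53INP1 they were 0.71, 0.41 and 0.37 in hypoxia and -1.14, -0.97 and -0.50 in normoxia. In these 3 genes all the hypoxic differences lay on the same side of the normoxic ones. These values are from the probe sets used. Fitted singly without a block, the 3 probe sets of GDF15 gave differences of effects from -2.35 to -0.03. The 3 sets of TP53INP1 ran from -0.2 to 1.37, with 1 positive and 2 negative, and GADD45A has only 1 set. None of these sets was called, and the block was not fitted to single probe sets. The paired calls rested on single pairs of arrays, as the leaving out of 1 array, which takes its pair out of the blocked fit, showed. For GDF15 the adjusted p was 0.0586 and 0.0862 without number 1 or 2 of hypoxia, 0.151 and 0.119 without number 2 or 3 of normoxia, and 0.027 and 0.0408 without the others. For TP53INP1 it was 0.0586 without number 2 of hypoxia, 0.0808 without number 2 of normoxia, and 0.0129 to 0.0408 otherwise. For GADD45A it was 0.0523 without number 2 of normoxia, and 0.0065 to 0.0309 otherwise. With no block the difference of GDF15 was -1.43 without replicate 3 of L3.6pl hypoxia (adjusted p = 0.823), and that of TP53INP1 was 0.85 without replicate 1 of FG normoxia (adjusted p = 0.928). Without all 3 arrays that stood apart the differences were -1.83 for GDF15, -1.18 for GADD45A and 0.95 for TP53INP1, with adjusted p of 0.289, 0.369 and 0.611. For CDKN1A (-0.21 ± 0.564) and TNFRSF10D (-0.26 ± 0.262) the fit without the block gave adjusted p of 0.974 and 0.919.

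Other genes of the p53 pathway were read from lists of names, which were chosen with earlier results of these data known. Of 18 measured members of the p53 family and its regulators, 2 were higher and 3 lower in hypoxic FG, and 2 were higher and 1 lower in hypoxic L3.6pl. The shares of all genes were 4.24% higher and 6.47% lower in FG, and 3.89% higher and 2.97% lower in L3.6pl. PPP1R13L, the iASPP inhibitor of p53, was at 8.48, 9.02 and 8.91 in hypoxic FG, against 8.27, 7.56 and 7.31 in normoxic FG, and at 8.49, 8.88 and 8.44 in hypoxic L3.6pl, against 7.0, 6.61 and 6.59 in normoxic L3.6pl. It rose by 1.09 in FG (adjusted p = 0.0173, limma) and by 1.87 in L3.6pl (adjusted p = 0.00174). ATR, the kinase that signals replication stress to p53, was at 8.30, 8.27 and 8.03 in hypoxic FG, against 9.55, 9.56 and 9.31 in normoxic FG. It fell by 1.27 on the log2 scale in FG (adjusted p = 0.000299) and by 0.98 in L3.6pl (adjusted p = 0.00193). TP53BP2, which steers p53 to apoptosis genes, rose by 0.62 in FG, while the repair factor TP53BP1 fell by 0.45 there. The acetyltransferase KAT5 rose by 0.36 in L3.6pl. CDKN2A, whose ARF product holds MDM2 back, was not called in FG (-0.04) or L3.6pl (-0.08), nor was USP7, which removes ubiquitin from MDM2 and p53 (0.07 in FG and 0.12 in L3.6pl).

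Of 18 further p53 targets, 1 rose and 1 fell in each line in hypoxia, with medians of -0.06 in FG and 0.02 in L3.6pl, beside -0.03 and -0.02 over all genes. Called higher and lower were 4.24% and 6.47% of all genes in FG, and 3.89% and 2.97% in L3.6pl. PMAIP1, the pro-apoptotic NOXA protein, rose by 1.01 in FG (adjusted p = 0.0414, limma) and NINJ1, a membrane protein of cell rupture, by 0.48 in L3.6pl (adjusted p = 0.0121). TRIM22, which is also an interferon-induced gene, fell by 1.09 in FG (adjusted p = 0.00548) and by 0.94 in L3.6pl (adjusted p = 0.0156). Between the lines, IGFBP3, which binds insulin-like growth factors, was higher in L3.6pl by 1.87 in normoxia (adjusted p = 0.00402) and 1.81 in hypoxia (adjusted p = 0.0033). IGFBP3 itself was not called for hypoxia (0.84 in FG, adjusted p = 0.142, and 0.78 in L3.6pl, adjusted p = 0.196), nor was PCNA, the replication clamp (-1.49 in FG, adjusted p = 0.0914, and -1.74 in L3.6pl, adjusted p = 0.0664). DRAM1, a lysosomal protein of autophagy, was lower in L3.6pl, with log2 differences of -1.47 in normoxia (adjusted p = 0.0205) and -1.23 in hypoxia (adjusted p = 0.0339).

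GDF15 and GADD45A are also known as genes that the integrated stress response can raise. Of 15 listed genes of that response, 6 rose in hypoxic FG and 2 in hypoxic L3.6pl, and none was called lower in either. Of all genes 4.24% were called higher in FG and 3.89% in L3.6pl. The medians were 0.57 in FG and 0.33 in L3.6pl, beside -0.03 and -0.02 over all genes. ATF3, a stress-induced transcription factor, was at 8.62, 8.47 and 8.47 in hypoxic FG, against 6.31, 5.89 and 5.95 in normoxic FG. In L3.6pl it was at 6.05, 6.18 and 5.74 in hypoxia, against 5.77, 5.71 and 5.96 in normoxia. ATF3 rose by 2.47 in FG (adjusted p = 1.94e-05, limma), and its hypoxia effect was smaller in L3.6pl than in FG, with a difference of -2.30 (adjusted p = 0.00259). PPP1R15A, the phosphatase subunit that ends the response, rose by 2.24 in FG and by 1.72 in L3.6pl. VLDLR, a lipoprotein receptor, rose by 1.84 in FG and by 2.06 in L3.6pl. ATF4, the central transcription factor of the response, was not called in FG (0.63, adjusted p = 0.25). Among the other uncalled genes, ASNS (-0.42 in FG and -0.39 in L3.6pl), CHAC1 (-0.16 and -0.21), SLC7A11 (-0.39 and -1.15) and SESN2 (-0.35 and -0.15) were negative in both lines. DDIT3 (0.62 and 0.95), TRIB3 (0.52 and 0.33) and CEBPB (0.54 and 0.20) were positive in both, also uncalled. In each of these uncalled genes replicate 1 of normoxia, which stood apart, was the highest normoxic array in both lines. ASNS in FG was at 11.27 there, against 9.34 and 9.69 in the other normoxic arrays and 9.68, 9.79 and 9.56 in hypoxia. The negative signs therefore depend in part on that replicate, although SLC7A11 in L3.6pl was lower in every hypoxic array than in every normoxic one. Whether these genes and GDF15 share a cause was not tested.

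The hypoxia markers served as a check of the treatment. Of 9 measured, 8 rose in each line, with medians of 2.38 in FG and 2.63 in L3.6pl, and ADM, the gene of a vasodilator peptide, rose by 4.59 in FG and by 3.72 in L3.6pl. Of 10 proliferation genes none was called in FG, where the median was -0.10, and in L3.6pl MCM2, a subunit of the replicative helicase, fell by 1.55 (adjusted p = 0.048, limma) with a list median of -0.79. The array means of this list were 9.8, 9.17 and 9.59 in hypoxic FG, against 8.35, 10.49 and 10.49 in normoxic FG. The value of 8.35 is replicate 1, which stood apart, and every hypoxic FG mean lay below the other normoxic ones. The medians therefore do not show a contrast between the lines. Of the genes that process or receive GDF15, 4 were measured. PCSK5, a proprotein convertase, was at 6.27, 6.76 and 6.49 in hypoxic FG, against 5.80, 5.61 and 5.82 in normoxic FG, and at 8.66, 8.64 and 8.38 in hypoxic L3.6pl, against 6.82, 6.76 and 6.78 in normoxic L3.6pl. It rose by 0.76 in FG (adjusted p = 0.00466) and by 1.77 in L3.6pl (adjusted p = 9.82e-05). FURIN, another convertase, was not called (-0.08 in both lines), nor was PCSK6 (1.99 in FG, adjusted p = 0.0507, and -0.26 in L3.6pl). Stromal markers, led by COL3A1, had array means of 5.90 to 6.25 in hypoxic L3.6pl and 5.68 to 5.81 in normoxic L3.6pl, against 6.97 to 7.03 in hypoxic FG and 6.60 to 6.87 in normoxic FG. COL3A1 was lower in L3.6pl, with log2 differences of -5.42 in normoxia and -4.93 in hypoxia, and COL1A1 with -1.43 in hypoxia (adjusted p = 0.02, limma). The other markers of the list did not follow: LUM, named after its values were seen, differed by 1.00 in normoxia (adjusted p = 0.433) and by 1.90 in hypoxia (adjusted p = 0.0693), and the list medians were 0.07 and -0.16. COL3A1 carries most of the difference in the means, and its part in the line differences of p53 targets was not tested.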

How the data were processed

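Each of 12 RNA samples was put on an Affymetrix array with 54675 probe sets. The authors deposited linear intensity values, and the submitters' processing notes name RMA, with no version. Intensities were turned into log2 values here without further normalization, since the medians of the deposited arrays lay between 39.1 and 41.4. Of the probe sets, 41091 named 1 gene, 1801 several and 11721 none, and 62 were controls.

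Group means of all 12 arrays were fitted with limma 3.58.1 in R 4.3.3 (8 residual and 2.72 prior degrees of freedom), with Benjamini-Hochberg adjustment over 19775 genes and calls below 0.05. The fit without a block was tested on simulated data, with independent noise in each array and changes in FG hypoxia only. Only the comparison of hypoxia against normoxia in FG was checked there. The replicate blocks and the difference of effects were not tested in this way. Values per array are given for GDF15, CDKN1A and MDM2, for members called with an absolute log2 fold change of at least 1, and for others chosen after their values were seen. The plan was to name at most 4 called members, by adjusted p, and at most 2 uncalled ones, by mean level, from each list of other genes. The text departs from it, as more are named from some lists. In the stress response list DDIT4 and CEBPG were passed over, although their adjusted p in FG was below that of PPP1R15A. Further uncalled genes of that list were named after their values were seen. SESN2 and PCNA stand in 2 lists each.

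The members and lists were chosen with earlier results of these data known. Same-numbered arrays of the lines correlated in their deviations at 0.73, 0.53 and 0.68 in normoxia and 0.36, 0.44 and 0.46 in hypoxia, so the numbers pair the lines, a pairing read from the data and not stated in the labels. Between oxygen conditions the correlations ran from -0.22 to 0.26 in FG and from -0.04 to 0.41 in L3.6pl. Alternatives were another normalization, centring, a filter on dim genes, all probe sets, other moderation, array weights, thresholds, fewer groups, replicate blocks and arrays left out. The number of arrays limits the precision.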

Additional observations from a re-analysis of the deposited data

Results flagged for a closer look

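In GDF15, GADD45A and TP53INP1 the hypoxia effect differed between the lines in a test of the difference itself, but only with same-numbered arrays paired. The log2 change of L3.6pl less that of FG was -2.35 for GDF15, -1.55 for GADD45A and 1.37 for TP53INP1, with adjusted p of 0.0346, 0.00713 and 0.0145 from limma with the replicate block within oxygen conditions. Without the block the adjusted p were 0.751, 0.467 and 0.78. With the block the adjusted p of GDF15 ran from 0.027 to 0.151 when 1 array was left out, and was above 0.05 without number 1 or 2 of hypoxia or number 2 or 3 of normoxia. That of TP53INP1 ran from 0.0129 to 0.0808, above 0.05 without number 2 of either condition, and that of GADD45A from 0.0065 to 0.0523, above 0.05 without number 2 of normoxia. With no block, the difference was -1.43 for GDF15 without replicate 3 of L3.6pl hypoxia and 0.85 for TP53INP1 without replicate 1 of FG normoxia. The sizes also depend on the probe set. Fitted singly without a block, the 3 sets of GDF15 ran from -2.35 to -0.03. Those of TP53INP1 ran from -0.2 to 1.37, with 1 positive and 2 negative, and none of these was called.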

How the results depend on the processing

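Of 19 calls of members followed through the alternatives, 12 held in all that were run, 7 were lost in at least 1, and none changed direction. Without the 3 arrays that stood apart, 8, 10, 9 and 11 members were called for hypoxia in FG, for hypoxia in L3.6pl, between the lines in normoxia and between the lines in hypoxia, against 5, 2, 5 and 7 in the fit of all arrays. Without those arrays 19.6%, 21.1%, 13.1% and 22.3% of all genes were called. In the same order, leaving out each array in turn gave 4 to 8, 1 to 5, 4 to 6 and 4 to 8, and 0 for the difference of effects. The shares of all genes then ran from 5.2% to 14.7%, 2.57% to 12.3%, 6.34% to 13.3% and 10.8% to 19.3%. For the difference of effects they ran from 0.0101% to 0.116%. Array quality weights gave 13, 9 and 15 in the first 3 comparisons, where 29%, 26.3% and 33.5% of all genes were called. The mean of all probe sets gave 8 and 4 in the first 2, beside 11% and 7.12% of all genes. An adjusted p below 0.01 left 3 and 1 members for hypoxia in FG and L3.6pl and 4 between the lines in hypoxia. Of all genes it left 4.35%, 2.4% and 8.69% in these comparisons. A replicate block over all arrays gave 9 for hypoxia in FG and 11 between the lines in hypoxia, beside 15.1% and 21.4% of all genes, although not every same-numbered pair of hypoxia and normoxia deviated together. With the replicate block within each oxygen condition, 12 members were called between the lines in normoxia, 13 in hypoxia, and 3 in the difference of effects. Of all genes 23.1%, 30% and 3.55% were called with that block. For GDF15 the mean of its probe sets gave log2 differences of 2.27 in FG (adjusted p = 0.00261) and 1.36 in L3.6pl (adjusted p = 0.0396), and the cause of these shifts was not tested. Signal over background was not analysed here, so dim probe sets are not marked.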
